A study of Mus musculus with 8 samples.

Results

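Interferons are secreted proteins that cells release when they sense foreign or misplaced nucleic acid. Type I and type III interferons bind cell surface receptors whose kinases activate transcription factors. STAT2 and IRF9 are parts of one such complex, called ISGF3, which binds an interferon-stimulated response element (ISRE) in the promoters of antiviral genes. Interferon gamma acts mainly through another element, the gamma-activated site (GAS), and drives the large interferon-inducible GTPases. In a tumour these genes can be switched on in the malignant cells as well as in the immune and stromal cells among them, and RNA from the whole tissue does not separate those sources.

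The interferon response genes described here were a list of 37, found as probe sets that name a single gene, with the brightest probe set kept for each gene. Of the 37, 33 were measured, among 19938 genes on the array. Isg15, Gbp2 and Igtp were read only by probe sets that name several genes, and Ifi44 had no probe set listed, so these 4 are not analysed here. Rigi, the RNA sensor RIG-I, appears in the array annotation as Ddx58. No filter on low values was applied, so all 33 measured members entered every test.

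RNA came from 8 primary osteosarcomas of C57Bl6 mice, 1 array per tumour. In 4 tumours, the shRNA OS model, p53 was targeted by the transgenic hairpin P53.1224. The other 4, the Cre:lox OS model, were P53fl/fl. The title speaks of lineage-restricted hairpin expression. Which promoter drove the hairpin or Cre, and how old the mice were, was not given in the sources used here. Of the shRNA OS tumours, tumours 1 and 3 were tibial and Rbfl/+, tumour 2 was tibial and Rb+/+, and tumour 4 came from the humerus and was Rbfl/+. Of the Cre:lox OS tumours, tumour 1 came from the scapula and was Rb+/+, tumour 2 came from the humerus and was Rbfl/+, and tumours 3 and 4 were tibial and Rbfl/+. Within each model the tumours are numbered here in accession order. The titles give each its own number, and nothing more says how they are related, so p-values measure the spread between these tumours.

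Values are log2 expression levels, in which a difference of 1 is a doubling of signal. Array medians lay between 7.13 and 7.23. The array of shRNA OS tumour 2 was the least like the rest and correlated with the others at 0.941 on average. The other arrays had means of 0.961 to 0.968, of which the lowest was that of Cre:lox OS tumour 4. All 7 measured of 11 osteoblast markers lay above the level of the median gene (7.55), with list means between 11.87 and 12.62 in the 8 tumours. The number of arrays limits the precision, and signal over background was not analysed here. In whole tumours, fewer cells of a type and less RNA per cell cannot be told apart.

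Promoter sequences show the element through which many of these genes are known to be switched on. A window from 250 bases before to 50 bases after the annotated start was held in RefSeq (GRCm38.p6) for 24 of the 33 measured members. The core of the ISRE was searched on both strands as GAAA, any 2 bases, then GAAA, which reads TTTC, any 2 bases, then TTTC on the other strand. It was found in 13 of the 24 members (54.2%). By promoter, it was found in 14 of 28 member windows and in 1131 of all 32851 windows of the same length (3.44%). In 10 of the 13 a match lay wholly before the start, and in the other 3 the matches reached or followed it. The GAS, searched as TTCNNNGAA, which reads the same on both strands, was found in 5 of the 24 members (20.8%). By promoter, that was 5 of 28 member windows against 8.3% of all windows. In 3 members both motifs were found, and in Bst2 they overlap. A match in these letters is a description of the sequence and no evidence of binding. A window counted as without a match can hold a similar run at another spacing, such as gaaacgaaa in Xaf1.

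The 7 stretches that follow, from a transcription factor gene, Ifit and OAS genes, other effectors and a GTPase gene, are shown because they carry ISRE core matches before the start. All read 5′ to 3′ on the gene's strand, with the matching bases in capitals. Where 2 matches overlap they form 1 run of capitals, as in Bst2 and Gbp3, and Ifit1 and Ifit3 each hold 2 separate matches.
Stat2, chr10:128270256-128270305, + strand: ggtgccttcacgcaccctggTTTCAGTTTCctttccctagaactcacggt
Ifit1, chr19:34640765-34640833, + strand: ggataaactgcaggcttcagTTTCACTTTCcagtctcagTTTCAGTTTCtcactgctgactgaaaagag
Ifit3, chr19:34583353-34583436, + strand: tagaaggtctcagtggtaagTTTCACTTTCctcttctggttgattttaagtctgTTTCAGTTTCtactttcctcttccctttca
Oas3, chr5:120777705-120777754, - strand: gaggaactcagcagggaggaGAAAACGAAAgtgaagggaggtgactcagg
Rsad2, chr12:26456543-26456592, - strand: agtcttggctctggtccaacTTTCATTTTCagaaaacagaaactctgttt
Bst2, chr8:71537567-71537622, - strand: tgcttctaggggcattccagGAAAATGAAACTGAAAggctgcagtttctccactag
Gbp3, chr3:142559979-142560034, + strand: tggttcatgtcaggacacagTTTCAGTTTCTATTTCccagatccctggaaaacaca

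The 2 matches of Ifit1 begin 104 and 85 bases before its start and those of Ifit3 156 and 122 bases before. In Rsad2 the match begins 120 bases before the start, in Oas3 75 and in Stat2 222. Among the stretches shown, TTTCAGTTTC occurs on the gene's strand in Stat2, Ifit1, Ifit3 and Gbp3, and on the other strand in Bst2.

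The levels of the interferon response genes followed single tumours, 1 from each model. Cre:lox OS tumour 4 held the highest level of 28 of the 33 genes, while it was highest for 13.2% of all genes and lowest for 23.8%. It was followed by shRNA OS tumour 1, a tumour of the other model. For 29 of the 33 genes these were the 2 tumours with the highest levels, a pair that came first for 3.68% of all genes. Both were tibial and Rbfl/+. So was tumour 3 of each model, which was neither highest nor lowest for any of the 33 genes. At the other end, Cre:lox OS tumour 2, from the humerus, was lowest for 18 genes and shRNA OS tumour 2, the Rb+/+ tibial tumour with the least similar array, for 12. These 2 tumours were lowest for 9.09% and 23.2% of all genes.

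Measured from each gene's own mean over the 8 tumours, the median deviation of the 33 genes was 0.99 in Cre:lox OS tumour 4 and 0.54 in shRNA OS tumour 1. It was 0.07 in Cre:lox OS tumour 1, -0.11 in shRNA OS tumour 3, -0.18 in Cre:lox OS tumour 3 and -0.22 in shRNA OS tumour 4. The lowest medians were -0.52 in shRNA OS tumour 2 and -0.65 in Cre:lox OS tumour 2. Over all genes the medians lay between -0.09 and 0.04. In Cre:lox OS tumour 4 all 33 genes stood above their own mean and in shRNA OS tumour 1 32 did, against 2 each in shRNA OS tumour 2 and Cre:lox OS tumour 2. Of all 19938 genes, 7675, 10206, 9266 and 9290 stood above their own mean in these tumours, in the same order. Each model thus held 1 tumour with high and 1 with low levels of the list. Of the 8 arrays, that of Cre:lox OS tumour 4 had the widest interquartile range (3.19) and that of shRNA OS tumour 2 the narrowest (2.59). The part of array-wide scale in these medians was not tested.

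**Figure D1:**
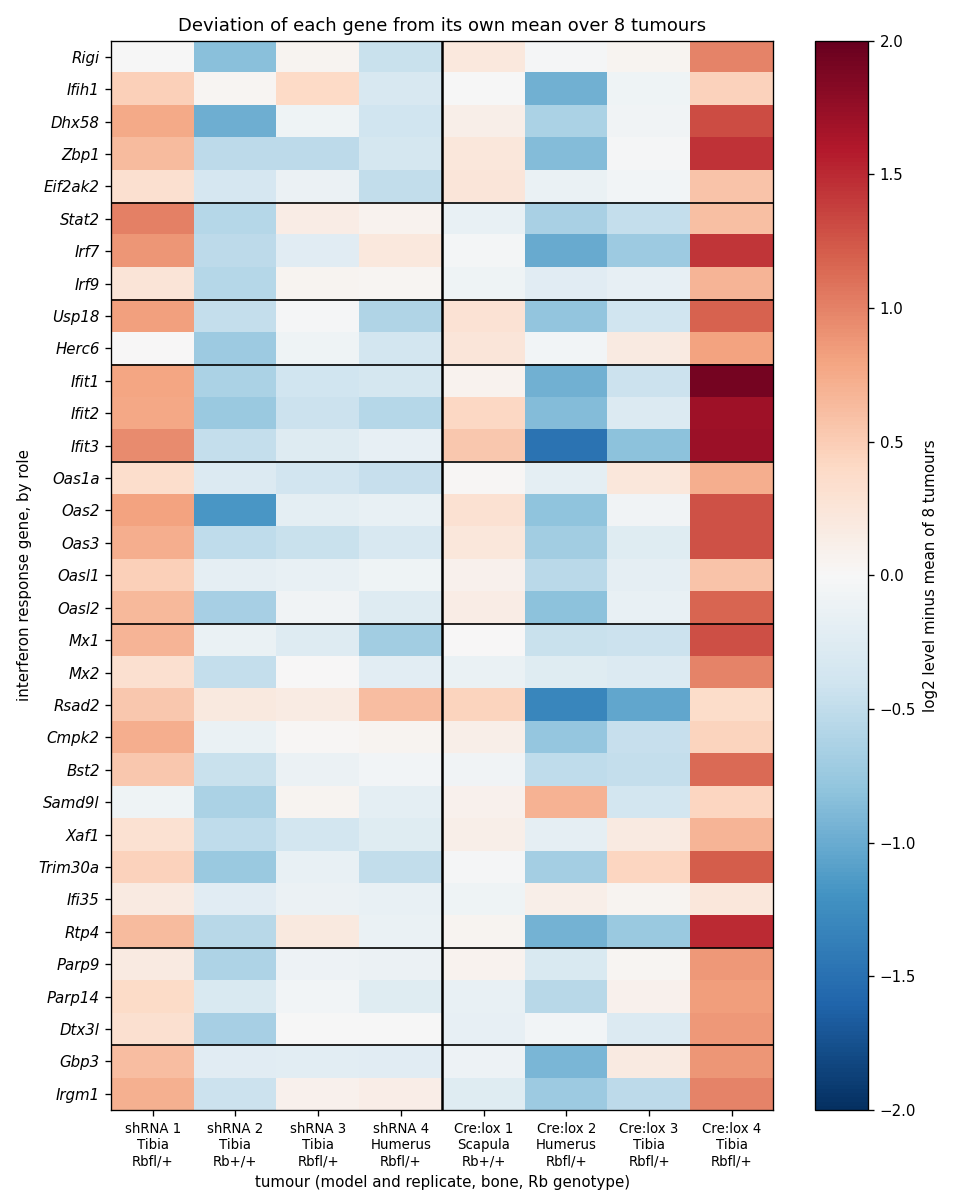
Deviation of each of the 33 measured genes (rows, grouped by role) from its own mean over 8 tumours, in log2 units, for each tumour (columns, with bone and Rb genotype). Cre:lox OS tumour 4 (median deviation 0.99) and shRNA OS tumour 1 (0.54) are red in nearly every row, while Cre:lox OS tumour 2 (-0.65) and shRNA OS tumour 2 (-0.52) are mostly blue.

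The spread over the 8 tumours was wide for most members. Their SD had a median of 0.57 log2 units, against 0.27 over all genes, and for 29 of the 33 it lay above the 75th percentile of all genes. The members' median level was 8.59, above the 7.55 of all genes.

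The Ifit genes, whose products bind viral RNA and block its translation, had the widest spread. Ifit3 stood at 9.70, 8.27, 8.50 and 8.59 in shRNA OS tumours 1 to 4 and at 9.29, 7.28, 7.93 and 10.47 in Cre:lox OS tumours 1 to 4. Its SD over the 8 tumours was 1.02, and its highest and lowest levels, 3.20 apart, were both in the Cre:lox OS model.
Ifit1 stood at 8.78, 7.37, 7.60 and 7.64 in shRNA OS and at 8.07, 7.03, 7.56 and 9.91 in Cre:lox OS, with an SD of 0.93. Ifit2 stood at 8.35, 6.83, 7.14 and 7.01 and at 7.99, 6.71, 7.31 and 9.27, with an SD of 0.89. All 3 genes put the same 3 tumours on top, in the order Cre:lox OS tumour 4, shRNA OS tumour 1 and Cre:lox OS tumour 1. Ifit2 and Ifit3 are direct neighbours and 3 other protein-coding genes lie between Ifit3 and Ifit1. Members of this family are similar in sequence, so a share of their signal may come from a relative.

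Among the factors that carry the signal, Irf7 varied most. IRF7 is the transcription factor that amplifies type I interferon production. It stood at 9.47, 8.07, 8.37 and 8.81 in shRNA OS and at 8.56, 7.58, 7.86 and 10.02 in Cre:lox OS, with an SD of 0.82. The same pair of tumours was highest and the 2 models overlapped throughout. Stat2 ran from 8.12 to 9.78 and Irf9, the DNA-binding part of ISGF3, from 8.06 to 9.32. Stat2 was 1 of 3 genes highest in shRNA OS tumour 1, where it reached 9.78 against 9.38 in Cre:lox OS tumour 4. The other 2 were Ifih1 and Cmpk2.

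The OAS genes encode enzymes that make a messenger activating RNase L, or, for the Oasl genes, their relatives. All 5 were highest in Cre:lox OS tumour 4 and next in shRNA OS tumour 1. Oas2 ranged from 7.13 in shRNA OS tumour 2 to 9.57, and Oas3 from 6.44 in Cre:lox OS tumour 2 to 8.40. Oasl1 (SD 0.37) and Oas1a (SD 0.41) had the narrowest ranges of the family, and Oas1a shares sequence with close copies such as Oas1g, so its level is uncertain. Oas2 and Oas3 are neighbours, as are Oasl1 and Oasl2.

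Of the 5 sensors of foreign nucleic acid, all but Rigi had the common pair of tumours on top. Dhx58, which encodes the RIG-I relative LGP2, ranged from 6.53 to 8.80 and Zbp1, a sensor that can start necroptosis, from 7.24 to 9.55, both with their highest level in Cre:lox OS tumour 4. The translation-blocking kinase gene Eif2ak2 (PKR) varied less. It stood at 8.56, 7.91, 8.13 and 7.75 in shRNA OS and at 8.49, 8.12, 8.20 and 8.82 in Cre:lox OS, with an SD of 0.35. Even so, its 2 highest tumours were those of the other genes.

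The ISG15 system marks proteins with a ubiquitin-like tag. Its protease Usp18, also a brake on interferon signalling, ranged from 7.99 to 9.95, and its ligase Herc6 from 7.56 to 9.10. Parp9 and Dtx3l, which work as a pair, and Parp14 are neighbours. Their ranges were 7.97 to 9.45, 8.02 to 9.55 and 8.05 to 9.45, and all 3 were highest in Cre:lox OS tumour 4. The GTPase genes Gbp3 (7.23 to 9.03) and Irgm1 (8.06 to 9.79), which act against microbes inside cells, had the same highest and lowest tumours, namely Cre:lox OS tumours 4 and 2.

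Other effectors were Bst2 (tetherin, which holds budding virus at the cell surface, 8.68 to 10.32), Rtp4 (7.38 to 9.82), Trim30a (8.88 to 10.83), Xaf1 (8.34 to 9.54), Mx1 (5.93 to 7.91) and Mx2 (5.87 to 7.33). All 6 were highest in Cre:lox OS tumour 4. The means of Mx1 and Mx2 lay below the level of the median gene. C57BL/6 mice are known to carry an Mx1 allele that makes no functional protein, which does not keep its RNA from being measured. Ifi35 had the narrowest spread of the list, with 8.58, 8.17, 8.28 and 8.25 in shRNA OS and 8.32, 8.51, 8.46 and 8.62 in Cre:lox OS, an SD of 0.17.

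In 4 members the top 2 tumours were not the common pair. Herc6 and Rigi were highest in Cre:lox OS tumours 4 and 1, Rsad2 in shRNA OS tumours 4 and 1, and Samd9l in Cre:lox OS tumours 2 and 4. Rsad2 encodes viperin, a radical enzyme that halts viral RNA synthesis, and its neighbour Cmpk2 encodes the kinase that supplies viperin's substrate. Rsad2 stood at 9.24, 8.90, 8.86 and 9.31 in shRNA OS and at 9.15, 7.39, 7.66 and 9.07 in Cre:lox OS. It was thus level in 6 tumours and lower in Cre:lox OS tumours 2 and 3, with no peak in Cre:lox OS tumour 4. Cmpk2 stood at 8.17, 7.31, 7.46 and 7.50 in shRNA OS and at 7.56, 6.67, 6.98 and 7.88 in Cre:lox OS, and was lowest in the same 2 tumours, though its top 2 were the common pair. Samd9l, an antiviral gene also known as a growth suppressor, had its highest level (9.38) in Cre:lox OS tumour 2, where 18 other members were lowest.

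**Figure D2:**
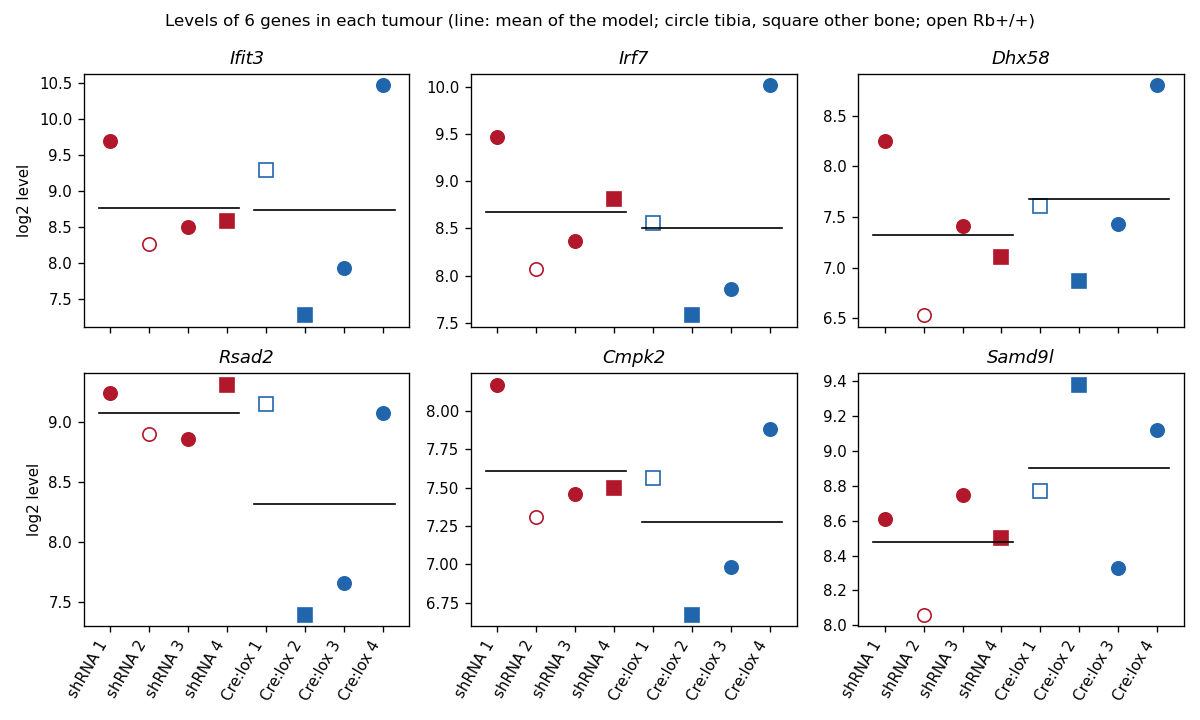
Log2 level of 6 genes in each tumour (horizontal axis; red shRNA OS, blue Cre:lox OS, circles tibia, squares other bones, open symbols Rb+/+), with the mean of each model as a line. Ifit3, Irf7 and Dhx58 peak in Cre:lox OS tumour 4 (10.47, 10.02 and 8.80) and then shRNA OS tumour 1, Rsad2 and Cmpk2 are lowest in Cre:lox OS tumours 2 and 3, and Samd9l is highest in Cre:lox OS tumour 2 (9.38).

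The comparison of models asks whether tumours with a p53 hairpin differ from those with floxed p53 alleles. None of the 33 genes passed limma's test at an adjusted p of 0.05, while 4 of 19938 genes did (0.0201%). At an unadjusted p under 0.05 there were 2 members, against 9.63% of all genes, and in none of the 33 did the models fail to overlap, against 5.44% of all genes. The mean was higher in shRNA OS for 9 members and lower for 24. Their median difference was -0.17, against 0.009 over all genes.

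Herc6 and Rigi had the smallest p of all members and were lower in shRNA OS, as was Xaf1, which came next in that direction. Herc6 stood at 8.30, 7.56, 8.21 and 7.92 in shRNA OS and at 8.53, 8.24, 8.47 and 9.10 in Cre:lox OS. Only shRNA OS tumour 1 and Cre:lox OS tumour 2 were out of order. Its difference was -0.59 (SE 0.22), from 8.0 ± 0.34 against 8.59 ± 0.36 (SD, n = 4 each), with limma adjusted p = 0.432.
Rigi stood at 9.54, 8.70, 9.60 and 9.09 in shRNA OS and at 9.75, 9.52, 9.59 and 10.54 in Cre:lox OS. Its difference was -0.62 (SE 0.27), with limma adjusted p = 0.509. Xaf1, which encodes a partner of the apoptosis inhibitor XIAP, stood at 9.16, 8.34, 8.49 and 8.61 and at 8.97, 8.68, 9.04 and 9.54, a difference of -0.41 (SE 0.23, limma adjusted p = 0.618). For Rigi 2 shRNA OS tumours lay within the range of Cre:lox OS, and for Xaf1 1 did, shRNA OS tumour 1.

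In the other direction, Rsad2 had a difference of 0.76 (SE 0.39), from 9.08 ± 0.23 against 8.32 ± 0.92 (SD, n = 4 each), with limma adjusted p = 0.577. Cmpk2 followed at 0.34 (SE 0.29, adjusted p = 0.785). Ifih1, which encodes the double-stranded RNA sensor MDA5, stood at 9.14, 8.71, 9.07 and 8.35 in shRNA OS and at 8.67, 7.71, 8.59 and 9.13 in Cre:lox OS, a difference of 0.30 (SE 0.30, adjusted p = 0.828). Ifih1 and Rigi, both RNA sensors, thus had means that lay in opposite directions. Ifit3, with the widest spread, differed by 0.02 (SE 0.63).

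By role, 4 of 5 sensors, 4 of 5 OAS genes, 2 of 3 Ifit genes, 7 of 10 other effectors, all 3 of the Parp and Dtx3l group and both measured ISG15 genes had lower means in shRNA OS, and Stat2 and Irf7 had higher ones. The direction of the list rested on single tumours. Its median difference was 0.13 without Cre:lox OS tumour 4, with 23 of 33 means then higher in shRNA OS. Leaving out shRNA OS tumour 1 gave -0.41 and leaving out shRNA OS tumour 2 gave -0.03. For Cre:lox OS, leaving out tumour 2 gave -0.39 and leaving out tumour 3 gave -0.29.

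**Figure D3:**
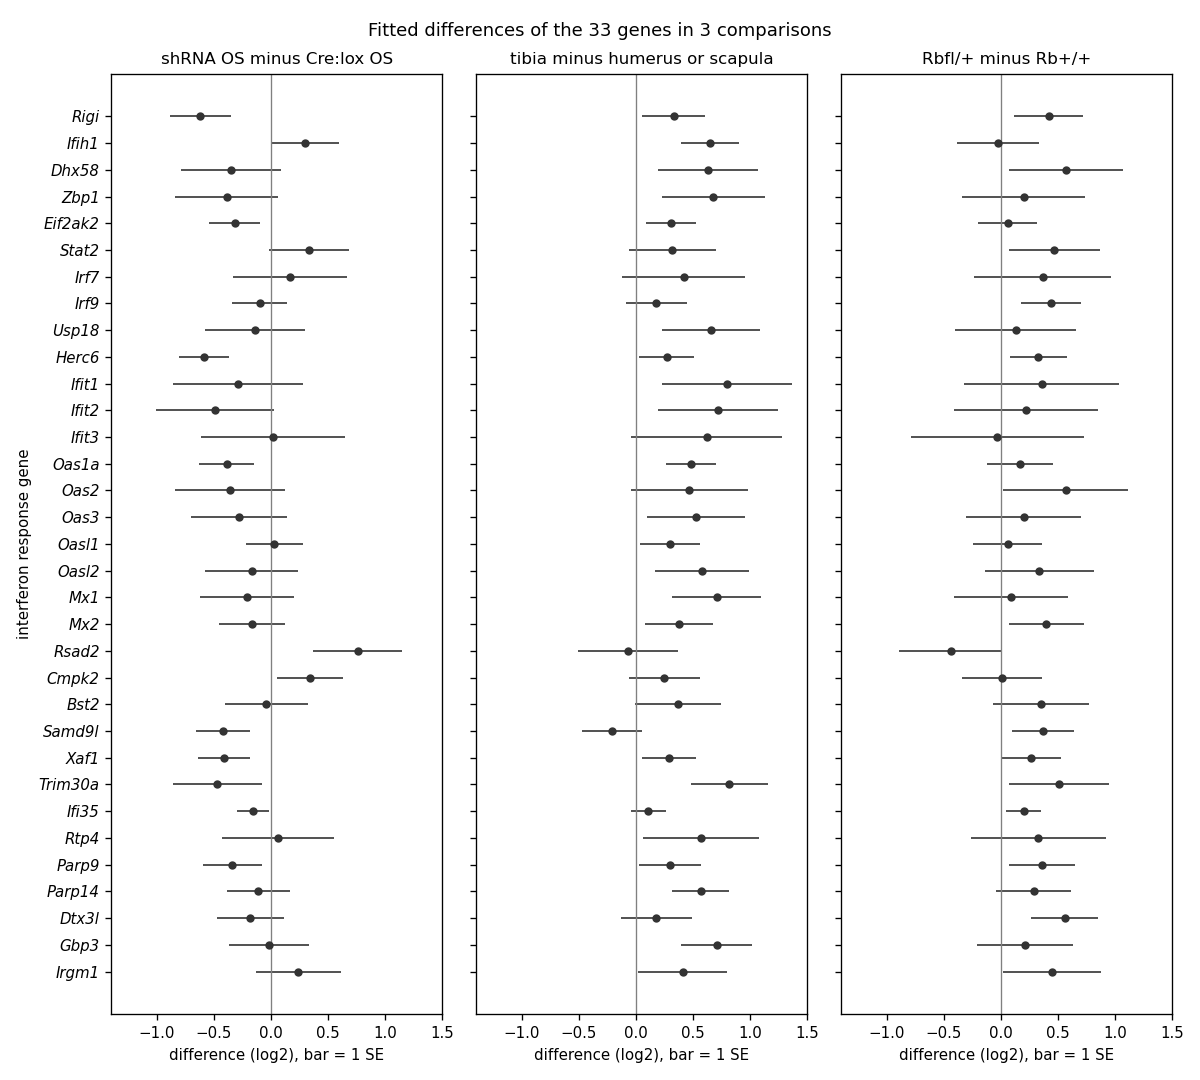
Fitted difference of each of the 33 genes (dots, log2) with 1 SE (bars) between models, between bones and between Rb genotypes. Between models most dots lie left of 0 (median -0.17), between bones 31 of 33 lie right of it (median 0.42), and no gene passed the threshold in any of the 3 comparisons.

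The labels also give the bone, and the 5 tibial tumours were set against the 3 others, from humerus or scapula, in a fit that also held the model. Fitted differences were on the tibial side in 31 of 33 members, with a median of 0.42, while 44.5% of all genes lay on that side and their median was -0.025. None of the 33 passed limma's adjusted threshold, as was so for all genes (0.0%). At an unadjusted p under 0.05 there were 3 members, all higher, against 5.64% of all genes in either direction. In no member did the 2 groups of bones fail to overlap, against 2.6% of all genes.

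Ifih1, whose values are given above, had the smallest p by site. It was 8.93 ± 0.26 (SD, n = 5) in tibial tumours against 8.24 ± 0.49 (SD, n = 3), a difference of 0.65 (SE 0.25, limma adjusted p = 0.816). Of the tibial tumours only Cre:lox OS tumour 3 (8.59) lay below the scapular one (8.67).
Trim30a, which encodes a ubiquitin ligase of immune signalling, stood at 10.08, 8.88, 9.48, 10.05 and 10.83 in the tibial tumours and at 9.13, 9.60 and 8.95 in the others. Its difference was 0.82 (SE 0.34, limma adjusted p = 0.845). Of the tibial tumours, shRNA OS tumour 2 lay lowest, below all 3 others.
Gbp3 stood at 8.76, 7.93, 7.94, 8.33 and 9.03 in tibial tumours and at 7.93, 8.05 and 7.23 in the others, a difference of 0.71 (SE 0.31, adjusted p = 0.877). Parp14, a mono-ADP-ribosyltransferase, stood at 9.0, 8.31, 8.55, 8.69 and 9.45 and at 8.37, 8.47 and 8.05, a difference of 0.57 (SE 0.25, adjusted p = 0.895). For both genes the 2 highest tumours were tibial and only shRNA OS tumour 2, and for Gbp3 also tumour 3, fell among the others.

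By role, all 5 sensors, 5 OAS genes, 3 Ifit genes, 3 transcription factors and both GTPases had fitted differences above 0. The median differences were 0.63 for sensors, 0.72 for Ifit genes and 0.48 for OAS genes. The exceptions were Samd9l (-0.21, SE 0.26) and Rsad2 (-0.07, SE 0.44), whose plain mean was yet 8.75 in tibial tumours against 8.61, since the model enters the fit. Within Cre:lox OS, 2 tibial against 2 other tumours, the mean was higher in 32 of 33 members with a median difference of 0.64. Within shRNA OS, 3 against the single humeral tumour, it was higher in 25 with a median of 0.19. Of all 19938 genes, the mean was higher in 9310 within Cre:lox OS and in 9181 within shRNA OS. Without Cre:lox OS tumour 4 the overall median was 0.09 in place of 0.42 and 24 of 33 differences were above 0. Leaving out Cre:lox OS tumour 2 gave 0.25 and tumour 3 gave 0.69, and leaving out shRNA OS tumour 4 gave 0.64.

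Between Rb genotypes, again with the model in the fit, the 6 Rbfl/+ tumours were set against the 2 Rb+/+ tumours. Fitted differences were on the Rbfl/+ side in 30 of 33 members, against 47.0% of all genes. Their median was 0.33, against -0.017 over all genes. No member passed limma's adjusted threshold (all genes 0.0%), and none reached an unadjusted p under 0.05, against 4.73% of all genes. No member separated the genotypes, against 4.63% of all genes. The 2 Rb+/+ tumours differed from each other, with list medians of -0.52 in shRNA OS tumour 2 and 0.07 in Cre:lox OS tumour 1. The median difference was 0.09 when the former was left out and 0.58 when the latter was. Leaving out Cre:lox OS tumour 4 gave 0.11 and leaving out shRNA OS tumour 1 gave 0.19. Dtx3l had the smallest p (0.56, SE 0.29, limma adjusted p = 0.836).

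Genes that make and relay the signal were looked at next. Of 33 listed ligands, receptors and signalling genes 30 were measured, and none passed the adjusted threshold in any of the 3 comparisons. Their median deviation ran from -0.33 in shRNA OS tumour 2 to 0.19 in Cre:lox OS tumour 4, a narrower range than that of the 33 members, though this difference was not tested. The ligand genes Ifnb1 (mean 5.11), Ifna4 (5.09), Ifna2 (6.89) and Ifng (6.43) lay below the level of the median gene. The type III ligand gene Ifnl2 lay above it, with a mean of 8.28 and its lowest level, 7.92, in Cre:lox OS tumour 4. In that tumour, Ifnb1 stood at 4.66, its lowest level in the 8 tumours, and Ifng at 6.43. The receptor gene Ifnar2 had its highest level there (11.31).

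By model, means were higher in shRNA OS for 11 of the 30 and lower for 19, with 5 at an unadjusted p under 0.05, against 9.63% of all genes. Socs3, a feedback inhibitor of JAK kinases, led them. It stood at 8.54, 7.53, 8.38 and 8.32 in shRNA OS and at 9.27, 8.85, 9.38 and 9.39 in Cre:lox OS, so that the models did not overlap, as was so for 5.44% of all genes. Its difference was -1.03 (SE 0.23), with limma adjusted p = 0.205. Irf3, the factor that starts the first wave of interferon, was the leading gene in the other direction (0.51, SE 0.18, adjusted p = 0.402). By site, Tlr7, an endosomal RNA sensor of myeloid cells, had the smallest p (1.41, SE 0.42, adjusted p = 0.691), and Jak2 led the genes with fitted differences below 0 (-0.86, SE 0.33, adjusted p = 0.82). By Rb genotype, 21 of 30 lay on the Rbfl/+ side, led by Ifngr1, a subunit of the interferon gamma receptor (0.46, SE 0.16, adjusted p = 0.836), and Ifna2 led the others (-0.35, SE 0.23, adjusted p = 0.836).

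Of 52 further interferon-stimulated genes 46 were measured. Cre:lox OS tumour 4 was highest for 30 of the 46 and stood above the gene's own mean for all 46, with a median deviation of 0.60. Of all genes, 13.2% were highest there, and 7675 of 19938 stood above their own mean. In shRNA OS tumour 1 the median was 0.32, and in shRNA OS tumour 2 and Cre:lox OS tumour 2 it was -0.29 and -0.28. These genes thus placed the same tumours at both ends as the 33 members. Cxcl10, a chemokine gene long used as a marker of interferon activity, stood at 10.84, 8.19, 9.23 and 8.85 in shRNA OS and at 9.09, 8.11, 8.50 and 10.94 in Cre:lox OS.
By model, means were higher in shRNA OS for 18 and lower for 28, 7 reached an unadjusted p under 0.05, against 9.63% of all genes, and none passed. Gbp4 led the higher ones (1.18, SE 0.30, adjusted p = 0.239), unlike its relative Gbp3 (-0.02), and Psmb8, a subunit of the immunoproteasome, the lower ones (-0.98, SE 0.27, adjusted p = 0.278). By site, 39 of 46 lay on the tibial side with a median of 0.28. Psmb9 led them (0.54, SE 0.16, adjusted p = 0.691), Ifitm1, which encodes a protein that hinders viral entry, led the others (-0.42, SE 0.22, adjusted p = 0.943), and none passed. By Rb genotype, 36 of 46 lay on the Rbfl/+ side, led by Slfn8 (0.54, SE 0.19, adjusted p = 0.836), with the chemokine gene Cxcl9 leading the others (-0.72, SE 0.64, adjusted p = 0.842).

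Markers of immune cells were high in some of the same tumours. All 15 listed macrophage markers were measured, with list means from 9.31 to 10.76 in tibial tumours and from 8.93 to 9.78 in the others, and only Cd163 lay below the level of the median gene. Their median difference by site was 1.19, beside the 0.42 of the interferon response genes, with 13 of 15 higher and 12 at an unadjusted p under 0.05, though none passed (lowest adjusted p = 0.647). Of all genes, 44.5% were higher and 5.64% reached that unadjusted p. By Rb genotype, 14 of the 15 markers lay on the Rbfl/+ side with a median of 0.67, beside the members' 0.33. On that side lay 47.0% of all genes. By model, 14 of the 15 were lower in shRNA OS with a median of -0.7, beside the members' -0.17. Of all genes, 51.9% were higher in shRNA OS. No marker passed in either comparison. The markers' median deviation was 0.99 in Cre:lox OS tumour 4 and 0.81 in shRNA OS tumour 1, where the interferon response genes were high. It was also 0.91 in Cre:lox OS tumour 3, where those genes stood at -0.18, and -0.12 in Cre:lox OS tumour 2, where they were lowest. Macrophage markers were lowest in shRNA OS tumour 4 (-1.09), while the interferon response genes stood at -0.22. Of the 15 markers 11 had their lowest level there, as did 7.8% of all genes. The 2 lists thus shared Cre:lox OS tumour 4 as the highest and differed in their lowest tumour. The part of macrophages in the result was not tested.

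MHC class II genes, 6 of 7 measured, stood far above the rest in shRNA OS tumour 1 (1.62) and lowest in Cre:lox OS tumour 2 (-1.66), with list means from 9.50 to 11.09 in tibial tumours and from 8.20 to 9.53 in the others. T and NK cell markers, 13 of 15 measured, all had means over the 8 tumours below the level of the median gene. List means lay between 5.97 and 6.57 in the 8 tumours. The median deviations of these markers in Cre:lox OS tumour 4 and shRNA OS tumour 1 were 0.23 and 0.21. In these tumours 8 and 11 of the 13 stood above their own mean, as did 7675 and 10206 of all 19938 genes. Nkg7 (mean 6.95) stood above the level of the median gene in both, at 8.37 and 7.94. Cd3e did so in shRNA OS tumour 1 (7.83). Of 5 markers of plasmacytoid dendritic cells, a strong source of type I interferon, 4 had means below the level of the median gene. The other, Tcf4 (mean 10.97), had its highest level, 11.31, in Cre:lox OS tumour 4, where 1 of the 5 stood above its own mean. Siglech, the most specific, stood between 6.36 and 6.87, at 6.46 in Cre:lox OS tumour 4. The osteoblast markers went the other way in Cre:lox OS tumour 4, with their lowest list mean (11.87). The part of each of these in the levels of the interferon response genes was not tested.

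**Figure D4:**
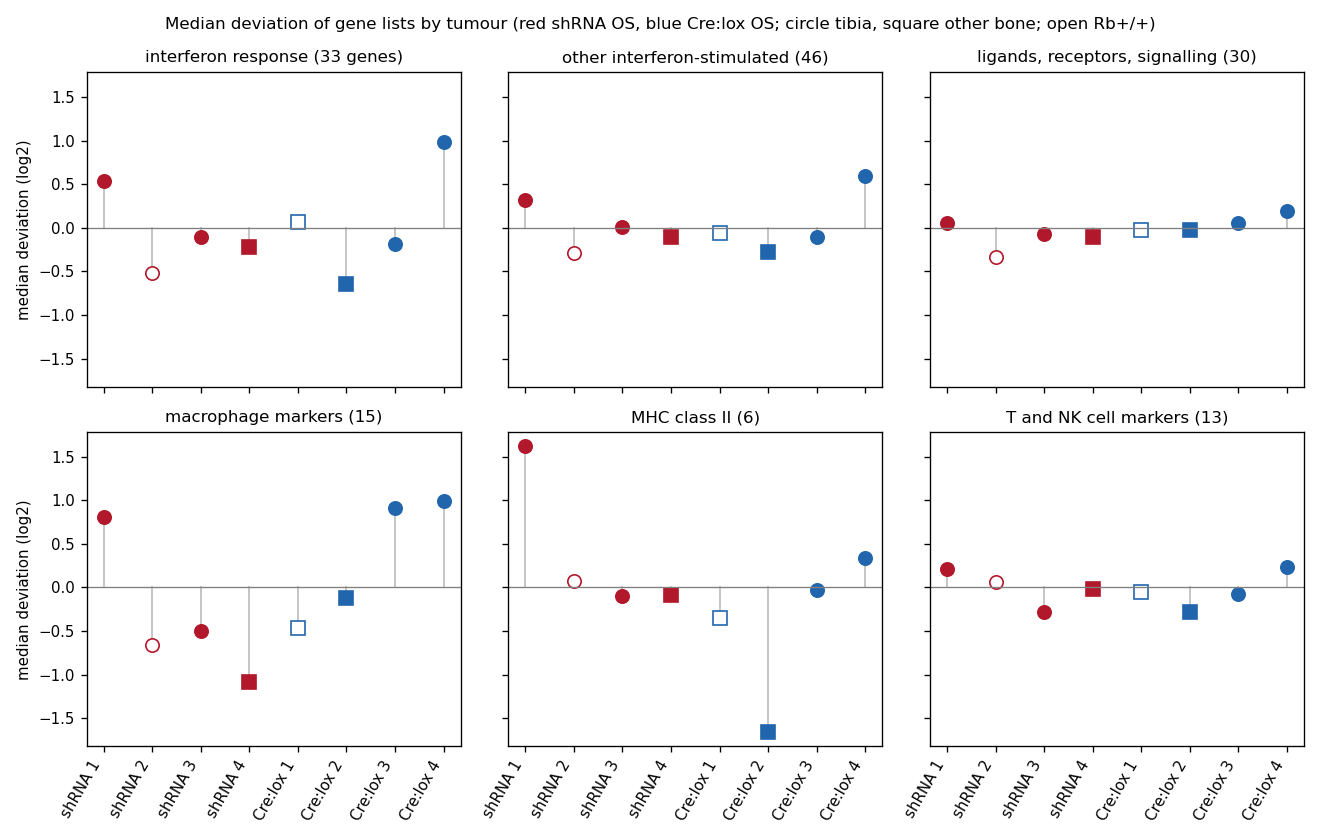
Median deviation (log2, vertical axis) of 6 gene lists from each gene's mean over 8 tumours, by tumour (red shRNA OS, blue Cre:lox OS, circles tibia, squares other bones, open symbols Rb+/+). The 33 interferon response genes and the 46 other interferon-stimulated genes are highest in Cre:lox OS tumour 4 (0.99 and 0.60) and shRNA OS tumour 1 (0.54 and 0.32), whereas macrophage markers are also high in Cre:lox OS tumour 3 (0.91).

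Members with and without an ISRE core in the promoter window were set side by side. By site, 12 of the 13 with a match had fitted differences above 0 with a median of 0.48, and 10 of the 11 with a window but no match did, with a median of 0.27. By model the medians were -0.04 with a match and -0.17 without. By Rb genotype 10 of 13 with a match were above 0, with a median of 0.21, and 11 of 11 without, with a median of 0.33. The median SD over the 8 tumours was 0.58 with a match and 0.45 without. These differences were not tested.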

How the data were processed

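RNA from 8 primary mouse osteosarcomas was measured on 1-colour arrays. Per the labels' protocols, Trizol homogenates of the tumours were cleaned on RNeasy columns. The deposited values are log2 levels made by the authors with RMA, and the build named is mm9, per the submitters' processing notes. No version of RMA and no filter was given in the sources used here. The arrays did not share 1 distribution. Their interquartile range ran from 2.59 in shRNA OS tumour 2 to 3.19 in Cre:lox OS tumour 4, so array-wide scale can enter every difference. Levels, deviations and ranks by tumour are of the deposited values, without rescaling.

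Of 35556 probe sets 21789 named 1 gene and were used, 1621 named several and 12146 had none listed. A gene was represented by its brightest probe set, giving 19938 genes. Groups came from the labels, and replicates were numbered in accession order, which pairs nothing. Comparisons used limma 3.58.1 in R 4.3.3 (lmFit, eBayes) over all genes with Benjamini-Hochberg adjustment, checked on simulated data. Values in every tumour are given for the 3 members of smallest p per direction by model, the 4 of smallest p by site, and the 4 widest and 2 narrowest in spread. For other lists the gene of smallest p per direction is named. Samd9l's departure, the ligands, Ifnar2, Cxcl10, Cd163, Siglech, Tcf4, Nkg7 and Cd3e were singled out after their values were seen. By site and Rb genotype a difference is the fitted one, with the model as covariate.

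The members and lists were chosen with earlier results of these data known, so no p over a list alone is given. Promoter windows are RefSeq's (GRCm38.p6), searched on both strands, and no coordinate was used with the array values.

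Alternatives were quantile normalization, median centring, a filter at the 25th percentile of level, the mean of probe sets, eBayes with trend and robust, array weights, other covariates, only Rbfl/+ or only tibial tumours, and leaving out each tumour.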

Additional observations from a re-analysis of the deposited data

Results flagged for a closer look

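In each model, in the tibial and in the Rbfl/+ tumours, the most distant tumour was set against the others for each of the 33 genes and each list. Its gap to the nearest passed Dixon's criterion in 11 of 176 groups, where chance flags about 1 in 20, and the groups share tumours. Within shRNA OS, tumour 1 stood above the other 3 for Oasl1 (8.67, next 8.10), Oas3 (7.85, next 6.81), Zbp1 (8.74, next 7.75) and Gbp3 (8.76, next 7.94). Within Cre:lox OS, tumour 4 stood above the others for Irf9 (9.32, next 8.55) and Mx2 (7.33, next 6.21), and among Rbfl/+ tumours for Rigi (10.54, next 9.60). Among tibial tumours, Cre:lox OS tumour 3 stood below the others for Rsad2 (7.66, next 8.86). The median deviation of MHC class II genes was 1.62 in shRNA OS tumour 1, against 0.07 for the next shRNA OS tumour and 0.34 for the next tibial one. That of neutrophil and granulocyte precursor genes was 0.10 in shRNA OS tumour 2, against -0.05 for the next.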

How the results depend on the processing

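No member passed the adjusted threshold by model, site or Rb genotype under any alternative run. The 10 differences given in full by model and by site kept their direction under every one, with limma adjusted p from 0.29 (Herc6) to 1.0. Some came close to no difference. Without Cre:lox OS tumour 2 the difference by model fell from 0.30 to 0.02 for Ifih1 and from 0.34 to 0.13 for Cmpk2. The number of members with a higher mean in shRNA OS was 9, but 15 with array weights or only Rbfl/+ tumours, 4 with only tibial tumours and 5 to 23 when 1 tumour was left out. By site 31 fitted differences were above 0, and 24 to 33 when 1 tumour was left out. By Rb genotype it was 30, and 18 (without shRNA OS tumour 2) to 33 when 1 tumour was left out. The other alternatives gave 22 to 30 by Rb genotype. With either Rb+/+ tumour left out, the spread of the other is assumed to be that of the rest. The median difference by model was -0.10 after quantile normalization and -0.05 with array weights, and by Rb genotype 0.21 and 0.13. The count of all genes past the threshold by model, 4, was 21 after quantile normalization, 9 after median centring, 19 with array weights, 13 with site as a covariate, 9 in Rbfl/+ tumours, 2 in tibial tumours and 0 to 42 when 1 tumour was left out. By site it was 0, and 1 when the humeral tumour of either model was left out. The cause was not tested. Signal over background is not known here, which limits what can be said of dim genes such as Mx1, Mx2, Ifnb1 and Ifna4.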
